A study of Mus musculus with 14 samples.

Results

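The 10 glycolysis enzymes Hk2, Gpi1, Pfkp, Pfkl, Aldoa, Gapdh, Pgk1, Eno1, Pkm and Ldha were followed through bulk RNA-seq of spinal cord microglia from wild-type (WT) and TASTPM mice with and without serum-transfer arthritis. They were taken by symbol from the 14329 genes with values, all 10 were present, and all 10 passed the filter on low values, which asked for 10 or more reads in 7 or more of 14 libraries. Mice were 6 months old, and each library was made from 2000 CD45low CD11b+ CX3CR1+ cells sorted from the dorsal lumbar spinal cord 5 days after the first of 2 intraperitoneal injections of arthritogenic K/BxN serum (K/BxN ST) or control serum (Control ST). Per the study's methods the gate also left out cells positive for Ly6C or CCR2, surface proteins of classical monocytes. There were 3 WT Control ST, 4 WT K/BxN ST, 3 TASTPM Control ST and 4 TASTPM K/BxN ST libraries, the comparison being whether the serum response of microglia differed with the transgenes. TASTPM mice are heterozygous for their transgenes, among them human APP with the Swedish change, driven by the Thy-1 promoter, which is active in neurons and not in microglia. WT mice shared the C57BL/6 background and carried no transgene, and control serum came from mice with the KRN receptor on that background, which do not develop arthritis. Libraries of TASTPM K/BxN ST are numbered as labelled and those of the other groups in the order of their columns. The study's methods count individual mice as replicates, and the labels tie no library to a sex.

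Glycolysis splits glucose into pyruvate in the cytosol and yields ATP without oxygen. Most of its steps can be run by several isozymes, enzymes from separate genes that catalyse the same reaction and differ in regulation and in the cells that use them. Myeloid cells such as monocytes, neutrophils and activated macrophages are known for high glycolytic flux, while resting microglia also use oxidative phosphorylation. The hypoxia-inducible factor HIF-1, which binds DNA at the core letters ACGTG or GCGTG, is a known activator of many of these genes.

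The libraries held 14223015 to 20239175 reads on genes, and 1 read was worth 0.838 to 1.19 normalized counts. Normalized counts are reads divided by 1 factor per library. Ly6c2, a surface marker of classical monocytes, set some libraries apart. It was between 1.87 and 17.8 normalized counts in the 6 Control ST libraries. In WT K/BxN ST it was 23510, 12898, 3.58 and 13.1 in libraries 1 to 4, and in TASTPM K/BxN ST 29133, 15646, 12.9 and 10.2. Thus 4 of the 8 K/BxN ST libraries, numbers 1 and 2 of each genotype, stood apart at over 100 normalized counts, and the other 4 were in the range of Control ST. The 4 libraries were set apart by Ly6c2 itself. Of the other genes listed as classical monocyte markers, 9 of 9 were above their level in each of the other 10 libraries. That list was made with earlier results of these data known, so it is a description. These 9 genes together took 0.419% to 0.806% of reads against 0.00113% to 0.00263%. Of the genes listed as monocyte markers, F10, Vcan and Cd177 were among those at 0 in at least 1 of the other 10 libraries. The neutrophil markers took 1.18% to 1.29% of reads in 3 of the 4 libraries and 0.0623% in WT K/BxN ST library 2, against 0.0243% to 0.0708% in the other 10, and 2 of 10 of them, Mmp8 and Camp, were higher in all 4. Mmp8 was at 3245 normalized counts or more in each of the 4 and at 60.0 or less in the other 10, and Csf3r, at 3960 to 10517 in those 10, made up most of their summed neutrophil markers. The neutrophil marker Ly6g was at 0 in at least 1 library of both kinds. Markers of border-associated macrophages took 0.0691% to 0.208% against 2.81e-05% to 0.0112% of reads (3 of 6 higher in all 4), and of dendritic cells 0.00480% to 0.0468% against 0.000531% to 0.00180% (3 of 5). Of the macrophage list, F13a1 alone was at 10358 to 32194 normalized counts in the 4, where the list summed to 11489 to 35137. Mrc1, Cd163 and Lyve1 overlapped with the other 10 libraries (Lyve1 148 to 331 against 0 to 476). Of the dendritic cell list, Cd209a was at 440 to 6678 in the 4, where the list summed to 798 to 7705. Zbtb46 and Itgae overlapped with the other 10 libraries. Microglia markers, among them Tmem119 and P2ry12, were present in every library, at 5.71% to 7.41% of reads in the 10 libraries and 2.02% to 4.77% in the 4, where 8 of 10 were below their level in each of the other 10. In bulk RNA, fewer cells of a type and less RNA per cell cannot be told apart. A score of Y-linked genes less Xist (mean log2 scale) was positive in the 4 libraries of high Ly6c2, at 5.06 to 8.93, and ranged from -11.8 to 7.55 in the other 10, being negative in 3 of the 4 K/BxN ST libraries of low Ly6c2. The part of these markers in the values below was not tested. With the score as a covariate limma called 0 of 10 members in each comparison. Without it limma also called 0 of 10 (0.00791% of genes in WT), so these calls cannot show the part of the score.

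Since 8 of the 10 members were high in the same 4 libraries, the 250 bases before the start of the canonical transcript were read from GRCm39 for every protein coding gene and searched for ACGTG and GCGTG on either strand, with overlapping matches counted as 1 place. ACGTG was found in 5 of 10 members (Hk2, Pfkp, Aldoa, Pgk1 and Ldha; 50%) and in 2311 of 10689 tested protein coding genes (21.6%). GCGTG went the other way, in 3 of 10 members (Gapdh, Eno1 and Ldha; 30%) and in 4532 of the 10689 genes (42.4%), and either form was in 7 of 10 members (70%) and 5766 of these genes (53.9%). The windows of Pfkp, Pgk1 and Hk2, the 3 members with ACGTG whose windows hold at most 30 bases of annotated exons, are given 5′ to 3′ on the strand of the gene, with ACGTG on either strand in capitals. They lie at chr13:6698971-6699220 on the minus strand, chrX:105230456-105230705 on the plus strand and chr6:82751453-82751702 on the minus strand.
Pfkp: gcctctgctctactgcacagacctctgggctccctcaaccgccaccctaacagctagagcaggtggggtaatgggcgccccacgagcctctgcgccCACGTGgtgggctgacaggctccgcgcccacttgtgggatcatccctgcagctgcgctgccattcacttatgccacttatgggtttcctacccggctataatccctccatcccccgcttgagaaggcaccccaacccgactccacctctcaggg
Pgk1: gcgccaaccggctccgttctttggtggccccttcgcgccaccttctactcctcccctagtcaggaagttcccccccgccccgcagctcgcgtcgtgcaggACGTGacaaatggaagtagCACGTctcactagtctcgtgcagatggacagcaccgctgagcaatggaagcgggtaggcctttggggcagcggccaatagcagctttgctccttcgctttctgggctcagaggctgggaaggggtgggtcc
Hk2: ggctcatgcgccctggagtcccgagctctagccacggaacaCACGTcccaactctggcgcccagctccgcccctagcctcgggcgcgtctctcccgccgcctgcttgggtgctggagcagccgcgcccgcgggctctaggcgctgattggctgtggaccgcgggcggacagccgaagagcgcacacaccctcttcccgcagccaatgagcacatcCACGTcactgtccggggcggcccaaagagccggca
Pfkp held 1 place and Pgk1 and Hk2 held 2 each. Pfkp and Pgk1 were high in the 4 libraries and Hk2 was not. Of the other members high in the same libraries, Gapdh and Eno1 held GCGTG alone, and Gpi1 and Pkm held neither form in this window. A match, or its absence from this window, is a description of the letters and says nothing of binding. A part of HIF-1 in the values was not tested.

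Over all libraries, 8 of the 10 enzymes had a higher mean in K/BxN ST than in Control ST in both genotypes, and Hk2 and Pfkl had a lower one. None passed the main test in any comparison. The high values were in the libraries with Ly6c2 over 100, where in both of WT (20.2% of the 12645 genes tested) and in both of TASTPM (19.7%) Gpi1, Pfkp, Aldoa, Gapdh, Pgk1, Eno1, Pkm and Ldha were above every Control ST library of the genotype. That was 8 of 10 members in both genotypes, beside 11.3% of genes. With Ly6c2 below 100, 0 of 10 members were above every Control ST library in both genotypes (1.06% of genes), and 0 of 10 had all 4 K/BxN ST libraries above in both (0.229%). The summed members took 0.178% to 0.220% of reads in Control ST, 0.209% to 0.225% in the 4 K/BxN ST libraries of low Ly6c2 and 0.348% to 0.613% in the 4 of high Ly6c2.

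**Figure D1:**
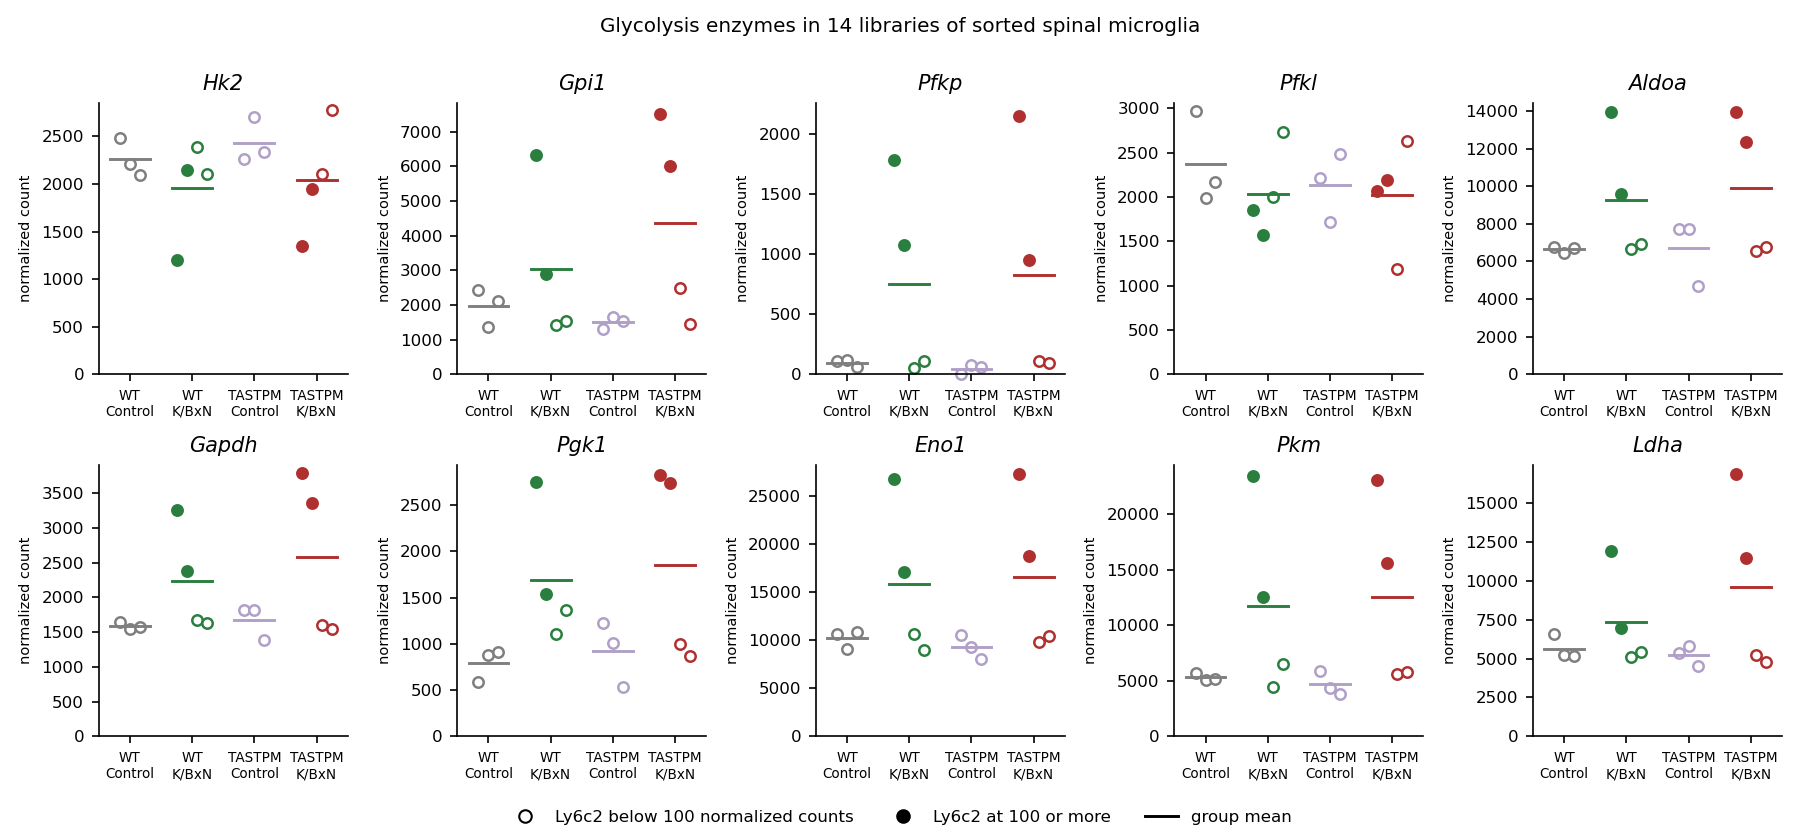
Normalized counts (vertical axes, linear from 0) of each enzyme in the 14 libraries by group, with filled points for libraries with Ly6c2 at 100 normalized counts or more and bars for group means. The filled points lie above all Control ST points of their genotype for every enzyme but Hk2 and Pfkl.

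Hexokinase 2 (Hk2) traps glucose in the cell as glucose 6-phosphate, in the first reaction of the pathway. Its normalized counts were 2483, 2216 and 2099 in WT Control ST against 1197, 2147, 2388 and 2109 in WT K/BxN ST. In TASTPM they were 2259, 2709 and 2336 in Control ST and 1347, 1952, 2102 and 2775 in K/BxN ST. The lowest value of either genotype was that of library 1 of K/BxN ST, where Ly6c2 was highest, and the groups overlapped in both genotypes. In TASTPM both libraries of high Ly6c2 were below every control, as were 16% of genes tested. The difference was -0.25 ± 0.26 on the log2 scale in WT and -0.29 ± 0.26 in TASTPM (limma, ± SE, n = 4 and 3). Without the 4 libraries of high Ly6c2 it was -0.010 ± 0.20 in WT and -0.0071 ± 0.20 in TASTPM.

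The other measured hexokinases were Hk1 and Hk3. Hk1, the widely expressed form, ranged from 293 to 1057 normalized counts in Control ST and from 795 to 1440 in K/BxN ST. Hk3, a form known from myeloid cells, was 1015 to 1517 in TASTPM Control ST and 1742 to 2245 in TASTPM K/BxN ST, so these groups did not overlap, whatever the level of Ly6c2, as was so in this direction for 2.67% of genes tested. In WT Hk3 overlapped, at 1266 to 2468 in Control ST and 1666 to 2423 in K/BxN ST. The log2 ratio of Hk2 to Hk3 was 0.0087 to 0.73 in WT Control ST and -1.02 to 0.52 in WT K/BxN ST, and 0.61 to 1.42 against -0.74 to 0.67 in TASTPM. The lowest ratio of each genotype was again in library 1 of K/BxN ST.

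Glucose 6-phosphate isomerase (Gpi1) converts glucose 6-phosphate to fructose 6-phosphate, at the branch point with the pentose phosphate pathway. It was at 2420, 1375 and 2097 normalized counts in WT Control ST against 6329, 2898, 1429 and 1540 in WT K/BxN ST. The TASTPM values were 1316, 1655 and 1543 in Control ST and 7518, 6011, 2487 and 1435 in K/BxN ST. Only the 2 libraries of high Ly6c2 exceeded all controls in WT, while in TASTPM library 3, with Ly6c2 at 12.9, did so as well and library 4 did not. The log2 difference was 0.40 ± 0.55 in WT and 1.25 ± 0.55 in TASTPM, and -0.37 ± 0.30 and 0.33 ± 0.30 without the high-Ly6c2 libraries.

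Phosphofructokinase catalyses the main regulated step, the second phosphorylation of the sugar, and is built from liver (Pfkl), platelet (Pfkp) and muscle (Pfkm) type subunits. Pfkp showed the widest differences of all members. It was at 108, 120 and 60.2 normalized counts in WT Control ST against 1779, 1076, 51.4 and 106 in WT K/BxN ST. In TASTPM the counts were 1.04, 75.5 and 56.3 in Control ST and 2148, 953, 107 and 95.9 in K/BxN ST. All 4 TASTPM K/BxN ST libraries were above the TASTPM Control ST libraries, as were 2.67% of genes tested for the 4 and 9.46% for the 2 of low Ly6c2, and the exact two-sided permutation test over the 35 splits of these libraries gave p = 0.0857, where 0.0286 is the smallest p the design allows. The values 107 and 95.9 of the libraries with low Ly6c2 were within the range of WT Control ST, and the value of 1.04 in TASTPM Control ST library 1 stands for a single read. In the 4 libraries of high Ly6c2, Pfkp was 11.2 to 18.5 times the Control ST mean in WT and 21.5 to 48.5 times in TASTPM. The log2 difference was 1.79 ± 1.47 in WT and 4.20 ± 1.47 in TASTPM, with standard errors several times those of the other members. Leaving out 1 library moved it between 0.97 (without WT K/BxN ST library 1) and 2.66 (without WT K/BxN ST library 3) in WT. In TASTPM it moved between 2.53 and 5.14, the values without Control ST libraries 1 and 2. Without the high-Ly6c2 libraries it was -0.31 ± 1.38 in WT and 2.30 ± 1.38 in TASTPM.

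Pfkl did not follow Pfkp. It was at 2975, 1988 and 2170 normalized counts in WT Control ST against 1852, 1567, 1998 and 2731 in WT K/BxN ST. TASTPM libraries had 2218, 1719 and 2486 in Control ST and 2072, 2190, 1188 and 2629 in K/BxN ST. The groups overlapped in both genotypes, although both WT libraries of high Ly6c2 were below every WT control, as were 17.5% of genes tested. The muscle type Pfkm was low and variable, at 6.56 to 270 normalized counts in Control ST and 3.52 to 136 in K/BxN ST.

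The log2 ratio of Pfkp to Pfkl was -5.15 to -4.04 in WT Control ST and -10.08 to -4.49 in TASTPM Control ST, so Pfkl was by far the more abundant subunit. In the high-Ly6c2 libraries the ratio was -0.057 and -0.54 in WT and 0.052 and -1.20 in TASTPM, so the 2 subunits were near parity in library 1 of each genotype and Pfkl remained the more abundant in library 2. In the low-Ly6c2 libraries of K/BxN ST the ratio stayed between -5.25 and -3.46.

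Aldolase A (Aldoa) cleaves fructose 1,6-bisphosphate into the triose phosphates. It was at 6780, 6448 and 6703 normalized counts in WT Control ST against 13959, 9563, 6637 and 6943 in WT K/BxN ST. For TASTPM, counts were 7705, 7729 and 4690 in Control ST and 13975, 12376, 6568 and 6783 in K/BxN ST. The libraries of low Ly6c2 were 0.979 to 1.05 times the Control ST mean of their genotype and those of high Ly6c2 at least 1.44 times. The log2 difference was 0.42 ± 0.31 in WT and 0.52 ± 0.31 in TASTPM, and 0.031 ± 0.21 and 0.030 ± 0.21 without the high-Ly6c2 libraries.

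Aldolase C (Aldoc), the form typical of brain, went the other way. It was at 1398, 1791 and 681 normalized counts in WT Control ST against 406, 146, 1046 and 816 in WT K/BxN ST. The corresponding TASTPM values were 858, 868 and 903 in Control ST and 491, 518, 813 and 773 in K/BxN ST, with no overlap between the groups, as was so in this direction for 2.74% of genes tested (3.71% in WT). The 4 lowest values of the series were those of the 4 libraries of high Ly6c2. The log2 ratio of Aldoa to Aldoc was 1.85 to 3.30 in Control ST, 2.66 to 3.13 in K/BxN ST of low Ly6c2 and 4.57 to 6.02 in K/BxN ST of high Ly6c2.

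Glyceraldehyde 3-phosphate dehydrogenase (Gapdh) makes the NADH of the pathway and is often used as a reference gene. It was at 1642, 1550 and 1576 normalized counts in WT Control ST against 3264, 2378, 1675 and 1625 in WT K/BxN ST. The TASTPM values were 1814, 1815 and 1386 in Control ST and 3788, 3363, 1607 and 1542 in K/BxN ST. It was thus up to 2.27 times the Control ST mean in the high-Ly6c2 libraries, above every control in each, and 0.923 to 1.05 times in the others. The sperm form Gapdhs was at 0 to 32.8 in Control ST and 1.19 to 51.7 in K/BxN ST. Triose phosphate isomerase (Tpi1), which interconverts the triose phosphates just before this step, was above every control in all 4 WT K/BxN ST libraries (2449 to 4471 against 1963 to 2440, beside 3.67% of genes) and overlapped in TASTPM (2079 to 5343 against 1760 to 3019).

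Phosphoglycerate kinase 1 (Pgk1) makes the first ATP of the payoff phase. It was at 592, 884 and 916 normalized counts in WT Control ST against 2757, 1544, 1110 and 1366 in WT K/BxN ST. In TASTPM the counts were 1225, 1008 and 531 in Control ST and 2822, 2740, 994 and 868 in K/BxN ST. In WT all 4 K/BxN ST libraries were above all 3 controls, with the 2 of low Ly6c2 at 1.39 and 1.71 times the Control ST mean, as were 3.67% of genes tested for the 4 libraries and 9.71% for those 2. Of these 2 libraries, the value of 1366 also exceeded the highest TASTPM Control ST library and that of 1110 did not. The exact two-sided permutation p in WT was 0.0571. In TASTPM the libraries of low Ly6c2 were inside the range of the controls. The log2 difference was 1.03 ± 0.45 in WT and 0.89 ± 0.45 in TASTPM, and 0.65 ± 0.36 and 0.096 ± 0.36 without the high-Ly6c2 libraries. The difference between the genotypes in that reduced set was -0.56 ± 0.51 (adjusted p = 0.998), so a serum response of Pgk1 particular to WT was not shown.

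Enolase 1 (Eno1) forms phosphoenolpyruvate. It was at 10681, 9113 and 10862 normalized counts in WT Control ST against 26782, 17135, 10645 and 8966 in WT K/BxN ST. TASTPM libraries had 10576, 9326 and 8025 in Control ST and 27272, 18769, 9828 and 10388 in K/BxN ST. The high-Ly6c2 libraries were at 1.68 to 2.93 times the Control ST mean and the others at 0.877 to 1.12 times. The neuronal enolase Eno2 was at 0 in all WT Control ST libraries and at 6.32, 16.8, 76.4 and 53.4 in WT K/BxN ST, and at 0, 44.4 and 0 against 16.6, 43.8, 39.9 and 135 in TASTPM, where the groups overlapped. The muscle enolase Eno3 ranged from 108 to 335 in Control ST and from 47.0 to 364 in K/BxN ST, and Eno4 from 0.955 to 52.8 and from 0.903 to 38.4. Pgam1, the phosphoglycerate mutase of the step before, was at 1176 to 1808 in Control ST, 1101 to 1745 in K/BxN ST of low Ly6c2 and 2364 to 4102 in K/BxN ST of high Ly6c2.

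Pyruvate kinase (Pkm) makes pyruvate and the second ATP. It was at 5738, 5069 and 5190 normalized counts in WT Control ST against 23433, 12571, 4441 and 6507 in WT K/BxN ST. For TASTPM, counts were 5895, 4328 and 3791 in Control ST and 23012, 15549, 5630 and 5812 in K/BxN ST. After Pfkp, Pkm had the largest fold in the library of highest Ly6c2 in WT, 4.39 times the Control ST mean, and in TASTPM library 1 it was at 4.93 times. The low-Ly6c2 libraries were at 0.833 to 1.24 times. The log2 difference was 0.85 ± 0.53 in WT and 1.18 ± 0.53 in TASTPM, and 0.014 ± 0.22 and 0.32 ± 0.22 without the high-Ly6c2 libraries. The values are per gene and do not tell the M1 and M2 splice forms apart.

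Lactate dehydrogenase interconverts pyruvate and lactate, and the subunits Ldha and Ldhb are known to favour lactate and pyruvate, respectively. Ldha was at 6564, 5239 and 5147 normalized counts in WT Control ST against 11931, 6944, 5126 and 5441 in WT K/BxN ST. The corresponding TASTPM values were 5384, 5814 and 4508 in Control ST and 16859, 11498, 5209 and 4780 in K/BxN ST. Ldhb was at 9012, 5870 and 6611 in WT Control ST against 3441, 4419, 7908 and 7702 in WT K/BxN ST. In TASTPM Ldhb was at 9868, 8685 and 5719 in Control ST and 3498, 6163, 8208 and 8187 in K/BxN ST. Ldhb was the more abundant subunit in all 10 libraries of low Ly6c2 and Ldha in all 4 of high Ly6c2.

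The log2 ratio of Ldha to Ldhb was -0.46 to -0.16 in WT Control ST and -0.87 to -0.34 in TASTPM Control ST. In the libraries of high Ly6c2 it was 0.65 and 1.79 in WT and 0.90 and 2.27 in TASTPM. In those of low Ly6c2 it was -0.63 and -0.50 in WT, below every WT control, and -0.78 and -0.66 in TASTPM, within the range of the controls. The mean difference in ratio between K/BxN ST and Control ST was 0.66 in WT and 1.03 in TASTPM, smaller than the SD of 1.13 and 1.44 among the K/BxN ST libraries.

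**Figure D2:**
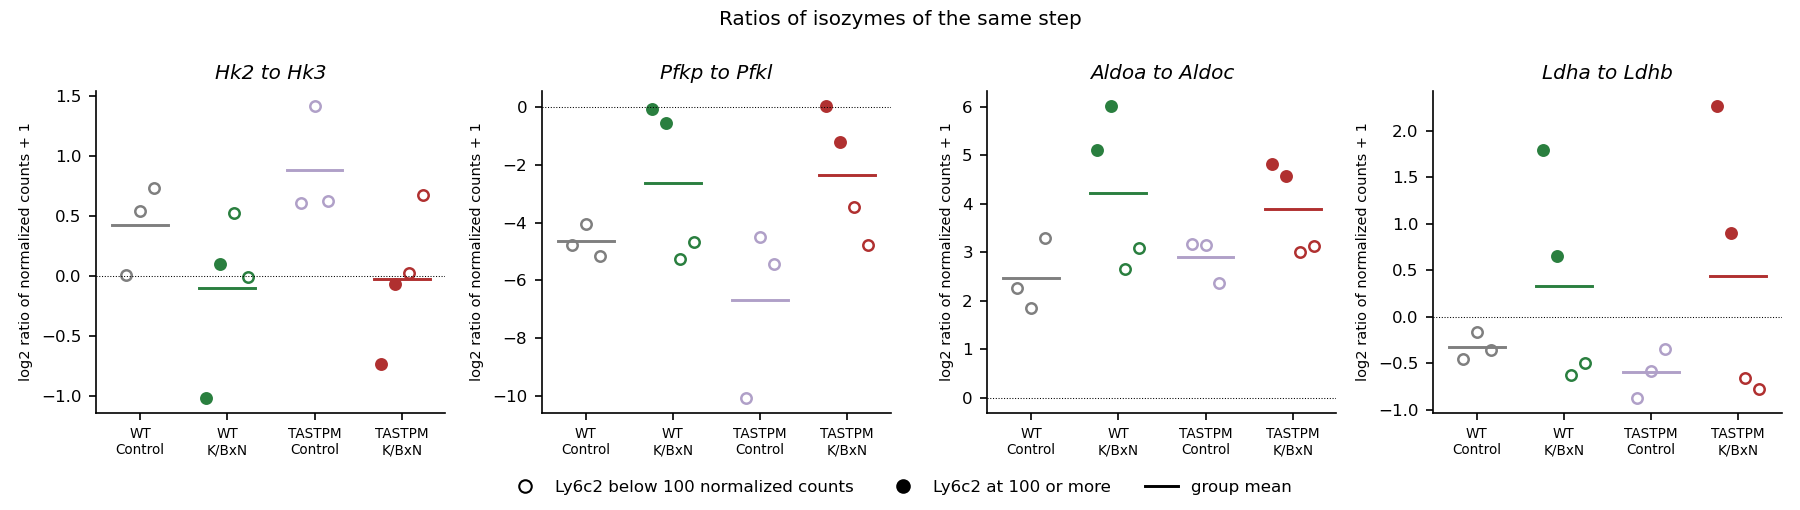
Log2 ratios of the normalized counts (plus 1) of 2 isozymes of the same step in the 14 libraries by group, with filled points for libraries with Ly6c2 at 100 normalized counts or more, bars for group means and a dotted line at parity. Ldha exceeds Ldhb in the 4 filled points and in no open point, and the Pfkp to Pfkl ratio is at -1.20 or higher in filled points and at -3.46 or lower in open points.

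Seen by library, WT K/BxN ST library 1 had 8 members above every WT control and 2 below, and library 2 had 8 above and 1 below. Libraries 3 and 4 had 2 and 3 above and 3 and 1 below. Of all genes tested, 29.8%, 25.7%, 22.5% and 23% were above every WT control in these libraries, and 26.3%, 23.6%, 21.2% and 21% were below. In TASTPM K/BxN ST, libraries 1 and 2 had 8 members above every TASTPM control and 1 below, library 3 had 2 above and 2 below, and library 4 had 3 above and none below. There the share of all genes above every control was 30.3%, 25.5%, 26.7% and 20%, and below every control 29.3%, 22.3%, 26.6% and 19.2%. The counts above in libraries 3 and 4 of both genotypes were near the background. In library 2 of WT the monocyte markers other than Ly6c2 took 0.419% of reads, the lowest share of the 4 libraries, and the same 8 members were above the controls. Its folds for the 7 of them other than Pfkp were smaller, from 1.23 for Ldha to 2.36 for Pkm, than in WT library 1, from 2.05 for Gapdh to 4.39 for Pkm. The neutrophil markers also differed, at 0.0623% of reads in WT library 2 and 1.29% in WT library 1. The part of either kind of marker in these folds was not tested.

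**Figure D3:**
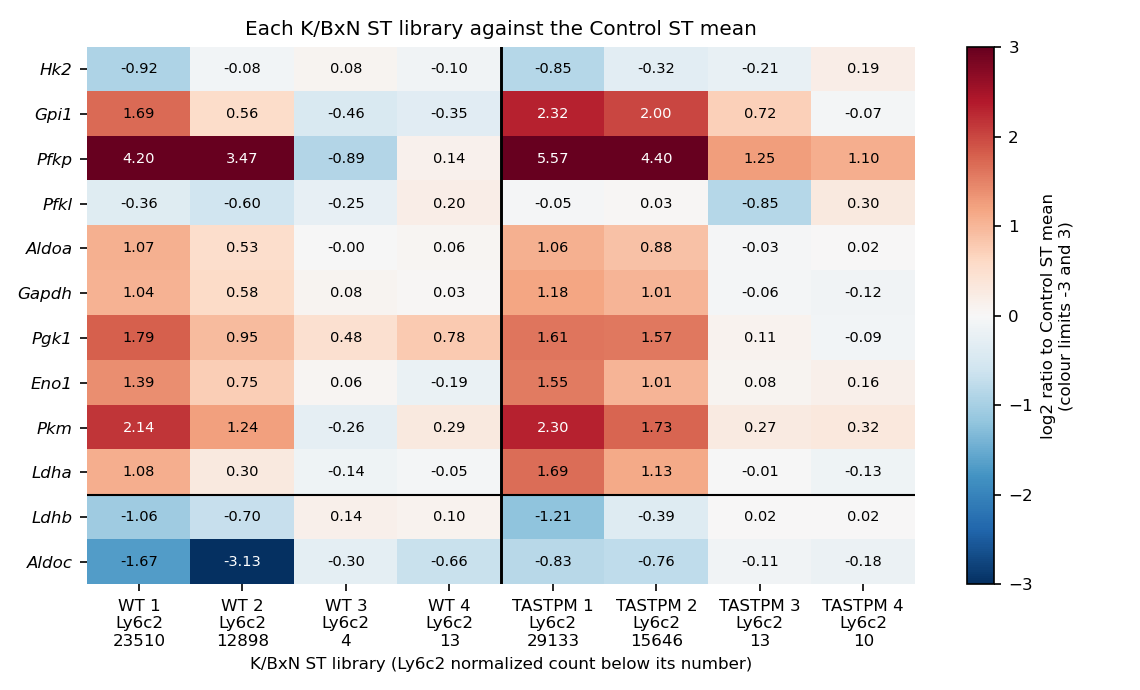
Log2 ratio of each K/BxN ST library to the Control ST mean of its genotype for the 10 enzymes and, below the line, for Ldhb and Aldoc, with the normalized count of Ly6c2 under each library number. Libraries 1 and 2 of each genotype are above 0 for the 8 enzymes other than Hk2 and Pfkl and below 0 for Ldhb and Aldoc, and libraries 3 and 4 are near 0 for most.

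In the fit of all genes by limma on log2(normalized count + 1), 0 of 10 members were called at an adjusted p below 0.05 and a log2 difference over 1, in WT (0.00791% of genes called), in TASTPM (0%) or over both genotypes (0%). Adjusted p was 0.684 to 0.868 over the members in WT, 0.964 to 0.972 in TASTPM and 0.476 to 0.753 over both genotypes. At an unadjusted p below 0.05, limma had 1 of 10 in WT (Pgk1; 7.13% of genes), 3 of 10 in TASTPM (Gpi1, Pfkp and Pkm; 4.22%) and 5 of 10 over both genotypes (Aldoa, Pfkp, Pgk1, Eno1 and Pkm; 9.76%). The median log2 difference of the members was 0.42 in WT, 0.69 in TASTPM and 0.55 over both genotypes, beside 0.057, 0.0056 and 0.035 for all genes tested. On the recovered reads DESeq2 called 3 of 10 over both genotypes (1.22% of genes, 1.16% counting higher ones), Pfkp at a log2 difference of 3.59 (adjusted p = 0.0168), Pkm at 1.28 (adjusted p = 0.0211) and Pgk1 at 1.05 (adjusted p = 0.0486). DESeq2 called 0 of 10 in WT (1% of genes) and in TASTPM (0.127%), and the quasi-likelihood test of edgeR called 0 of 10 in each of these comparisons (0% of genes).

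Without the 4 K/BxN ST libraries of high Ly6c2, the median log2 difference of the members was -0.0067 in WT, 0.063 in TASTPM and 0.011 over both genotypes, beside 0.040, -0.0055 and 0.019 for all genes tested. Of the 10 members, 4 were positive in WT, 6 in TASTPM and 5 over both. In that set limma and edgeR called 0 of 10 members (0% of genes in each comparison), DESeq2 called 0 of 10 (0.261% of genes in WT, 0.0791% in TASTPM and 0.0158% over both), and by limma no member reached an unadjusted p of 0.05 (4.25% of genes did in WT, 4.03% in TASTPM and 4.33% over both). This set has 2 K/BxN ST libraries per genotype.

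**Figure D4:**
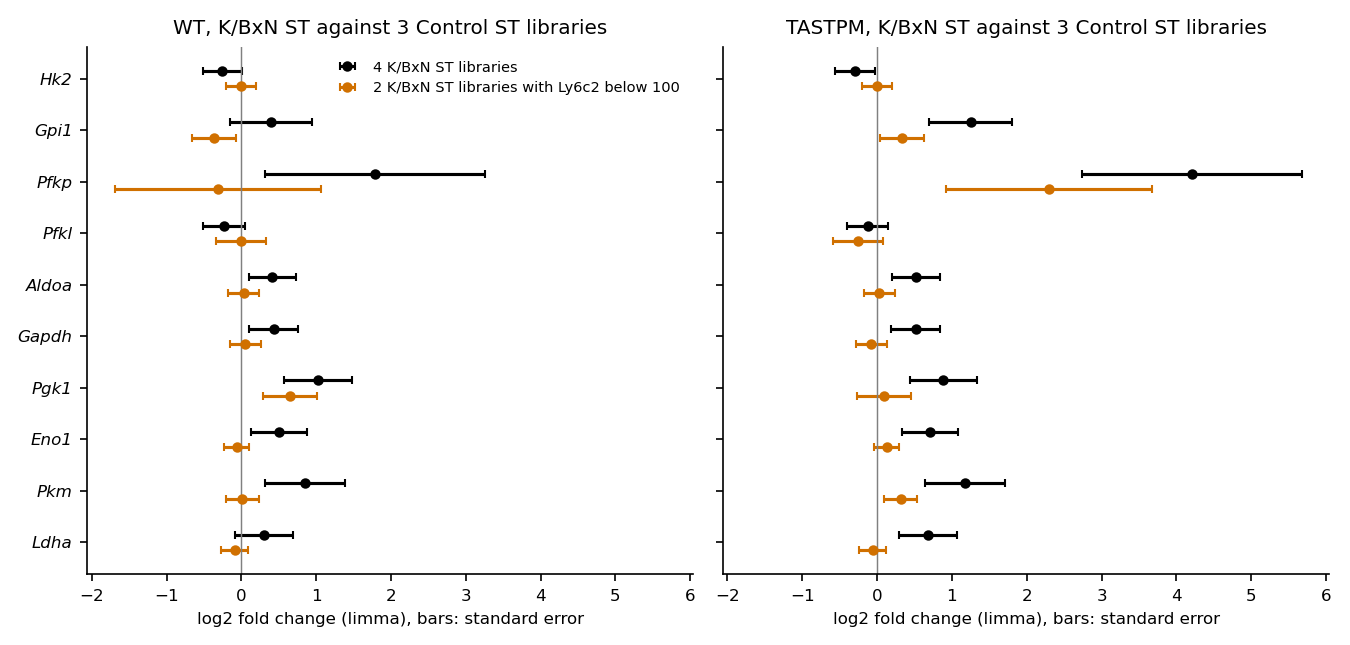
Log2 fold change (horizontal axes) of K/BxN ST against Control ST for each enzyme by limma, in WT and in TASTPM, with all 4 K/BxN ST libraries (black) and with the 2 libraries with Ly6c2 below 100 (orange), bars giving the standard error. Without the high-Ly6c2 libraries the largest values are 0.65 for Pgk1 in WT and 2.30 ± 1.38 for Pfkp in TASTPM.

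The genotype made no difference that passed a test. The interaction of genotype and serum ranged over the members from -0.14 for Pgk1 to 2.41 ± 2.08 for Pfkp on the log2 scale (adjusted p = 0.999 for all 10, limma), with 0 of 10 at an unadjusted p below 0.05 (3.04% of genes). TASTPM against WT gave log2 differences of -2.16 ± 1.57 (Pfkp) to 0.15 ± 0.48 (Pgk1) under Control ST and of -0.040 ± 0.25 (Pfkl) to 0.50 ± 0.51 (Gpi1) under K/BxN ST, with 0 of 10 called by limma in either and 0 of 10 at an unadjusted p below 0.05 (5.57% and 1.91% of genes). DESeq2 and edgeR called 0 of 10 in the interaction (0.0949% and 0% of genes) and in TASTPM against WT under Control ST (0.324% and 0%) and K/BxN ST (0% and 0%). The 2 comparisons of K/BxN ST with Control ST have separate controls, and each genotype has 2 libraries of high and 2 of low Ly6c2.

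Counts per kilobase of the canonical transcript, a scale that allows genes to be compared, ordered the enzymes in the 6 Control ST libraries. The highest were Ldhb at 4989 ± 1163 (SD), Aldoa at 4418 ± 735, Eno1 at 4258 ± 491 and Ldha at 3427 ± 437, whose ranges overlapped from each to the next. Pkm at 2043 ± 332 was below them without overlap. Gapdh at 1148 ± 117 was above Gpi1 at 597 ± 150 and Pfkl at 551 ± 106, which did not differ beyond their spread, and Pgk1 at 471 ± 143 overlapped both. Hk2 at 301 ± 27.9 had the lowest mean of the members but Pfkp, at 16.3 ± 9.84. The range of Hk2, 269 to 347, overlapped that of Pgk1, 291 to 671. The order is that of reads assigned to each gene and depends on how reads that match a second gene were counted.

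Such reads concern 4 members. Of the windows of 150 bases along the canonical transcript, 84.7% of those of Aldoa were found in the transcripts of Gm57854, 74.0% of those of Gapdh in one or more of 53 genes led by Gm7336, 66.1% of those of Pgk1 in 2 genes led by Pgk1-rs7 and 42.9% of those of Eno1 in 3 genes led by Eno1b. For Pkm it was 2.87%, and for Hk2, Gpi1, Pfkp, Pfkl and Ldha 0%. The absolute levels of Aldoa, Gapdh, Pgk1 and Eno1 are therefore uncertain. Eno1b was at 3.64% to 4.45% of Eno1 in every library, so the split between this pair did not move with Ly6c2. On GRCm39, Pfkp lies at chr13:6629798-6698970 and overlaps exons of Pitrm1, Pkm lies at chr9:59563364-59586663 and overlaps those of 6 genes, and Ldha lies at chr7:46490899-46505061 and overlaps those of 2.

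Around the pathway, 82 further genes of glucose metabolism were listed, of which 72 were among the deposited genes and 68 passed the filter. By limma 0 of 68 were called in any comparison (0.00791% of all genes in WT and 0% elsewhere), and DESeq2 called 2 of 68 in WT beside 1% of all genes, Slc2a3 (3.60, adjusted p = 0.0360) and Eno2 (adjusted p = 0.0191, with no fold given since WT Control ST was at 0). Slc2a3, a high-affinity glucose transporter, was at 0.937, 88.0 and 0 in WT Control ST against 761, 99.2, 375 and 201 in WT K/BxN ST, and at 366 to 487 against 241 to 520 in TASTPM. Low values in WT Control ST set that difference apart. The median log2 difference of the 68 genes was 0.17 in WT and 0.19 in TASTPM, and -0.0095 and 0.082 without the high-Ly6c2 libraries. No gene of the list had all 4 K/BxN ST libraries above (0.229% of all genes tested), or below (0.237%), all controls in both genotypes.

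In both high-Ly6c2 libraries of both genotypes, 16 of the 68 genes were above every control (23.5%, beside 11.3% of all genes tested) and 5 were below (7.35%, near the 6.3% of all genes). The pentose phosphate branch, which makes NADPH and ribose, gave 5 of 7 of its genes above: G6pdx, Pgls, Pgd, Tkt and Taldo1. G6pdx, its first enzyme and named here after its values were seen, was at 2702, 2524 and 2670 in WT Control ST against 9902, 6742, 3008 and 1676 in WT K/BxN ST. The TASTPM values were 2283, 2689 and 2334 in Control ST and 9144, 6122, 2229 and 2479 in K/BxN ST. The 5 genes that were below were Aldoc, the fructose transporter gene Slc2a5 that marks microglia, Rpia, Vhl and Myc. Glycogen and hexose phosphate genes had 3 of 7 above, glycerol phosphate and malate shuttles 2 of 7, and isozymes and neighbours 3 of 14. Pyruvate entry into mitochondria had 2 of 11 (18.2%) and transporters 1 of 9 (11.1%), beside the same 11.3% of all genes. Regulators of fructose 2,6-bisphosphate and gluconeogenic phosphatases had 0 of 4 above. Hypoxia and Myc regulators had 0 of 9 above and 2 of 9 below.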

How the data were processed

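Bulk RNA-seq was made from 14 libraries of sorted microglia. Per the paper's methods, cDNA was amplified with SMART-Seq v4, and per the submitters' processing notes reads were checked with FastQC 0.11.9, aligned with HISAT2 2.1 to GRCm39 and counted with featureCounts 1.5.2. The deposited values are a normalized signal made by the authors, in which the reads of a gene were divided by 1 factor per library. Dividing by the value of 1 read gave whole reads for 100% of values (tolerance 0.001 reads). Whether reads matching several genes, or strand, were used in counting is not given in the sources used here. The 7 repeated identifiers were left out. Columns other than those of TASTPM K/BxN ST were assigned to groups by the group header of the deposited table, since their numbers do not match the numbers in the sample labels.

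The main test was limma 3.58.1 with a trend on log2(value + 1), fitted to all 4 groups over the 12645 genes that had 10 or more reads in 7 or more of 14 libraries, with Benjamini-Hochberg adjustment. A fold change on this scale understates that of low genes. A gene was called at adjusted p below 0.05 and a log2 difference over 1. edgeR 4.0.16 and DESeq2 1.42.0 on the recovered reads were alternatives, beside other scalings, pseudocount, filter, covariates, 1 genotype alone and left-out libraries. Single genes had an exact permutation test over 35 splits. Scripts were tested on simulated data. Lengths, overlaps and upstream sequence came from GENCODE vM39, a later annotation than the authors'.

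The members and gene lists were chosen with earlier results of these data known. All 10 members, Ly6c2, the measured isozymes of the members, genes called in a comparison and those with all 4 K/BxN ST libraries above or below the controls in both genotypes are named; other genes were chosen after their values were seen. Some items are not reported here.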

Additional observations from a re-analysis of the deposited data

Results flagged for a closer look

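For Slc2a1, the main glucose transporter of the blood-brain barrier and of many cells, every K/BxN ST library was below the WT Control ST mean in WT and every one was above the TASTPM Control ST mean in TASTPM. In WT its normalized counts were 2994, 1965 and 2211 under Control ST and 1630, 1958, 1343 and 1789 under K/BxN ST. In TASTPM they were 1707, 1169 and 1697 under Control ST and 2265, 1988, 2605 and 2102 under K/BxN ST. The groups did not overlap in either genotype, as was so for 3.71% of genes tested with all 4 below in WT and 2.67% with all 4 above in TASTPM, and the opposite directions were seen in libraries of high and of low Ly6c2. The interaction of genotype and serum was 1.07 ± 0.30 on the log2 scale (limma, unadjusted p = 0.00311, adjusted p = 0.999), so it did not pass over all genes.

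The same pattern of opposite directions was seen for Pfkfb4, an enzyme that sets the level of fructose 2,6-bisphosphate, the activator of phosphofructokinase, with an interaction of 0.55 ± 0.26 (limma, unadjusted p = 0.0539, adjusted p = 0.999). These were 2 of the 78 genes looked at, the members and the 68 further genes of glucose metabolism, and both were chosen for this pattern, which was seen in 2.56% of these 78 genes and in 356 of the 12645 genes tested (2.82%).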

How the results depend on the processing

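Of 740 recomputed log2 differences of the members, 708 kept their direction and side of the threshold, 29 changed sign and 3 passed it, the DESeq2 values of Pfkp, Pkm and Pgk1 over both genotypes. None of the values that changed sign had passed the test. Without the 4 K/BxN ST libraries of high Ly6c2, the difference turned for Gpi1 (-0.37 in WT, -0.015 over both genotypes), Pfkp (-0.31 in WT), Gapdh (-0.075 in TASTPM, -0.011 over both), Eno1 (-0.060 in WT) and Ldha (-0.088 in WT, -0.061 in TASTPM, -0.075 over both). A further covariate was the mean of log2(normalized count + 1) over the monocyte and neutrophil markers. With this covariate the difference turned for Hk2 (0.060 in WT, 0.055 in TASTPM, 0.058 over both), Gpi1 (-0.51 in WT, -0.15 over both), Pfkp (-0.27 in WT) and Aldoa (-0.036 in WT, -0.012 over both). It also turned for Gapdh (-0.066 in WT, -0.042 in TASTPM, -0.054 over both), Eno1 (-0.079 in WT, -0.014 over both), Pkm (-0.026 in WT) and Ldha (-0.31 in WT, -0.0081 in TASTPM, -0.16 over both). Pfkl in TASTPM turned with a sex-linked score as covariate (0.036). With single libraries left out, Pfkl in TASTPM ranged from -0.28 to 0.11, turning without TASTPM K/BxN ST library 3, and Gpi1 in WT from -0.043 to 0.67, turning without WT K/BxN ST library 1. In WT, Pkm ranged from 0.42 to 1.22, Eno1 from 0.21 to 0.74, Aldoa from 0.20 to 0.55, Gapdh from 0.23 to 0.57 and Ldha from 0.043 to 0.45, each lowest without WT K/BxN ST library 1, Hk2 from -0.36 to -0.032, nearest 0 without the same library, and Pfkl from -0.38 to -0.058, nearest 0 without WT Control ST library 1. In TASTPM, Hk2 ranged from -0.46 to -0.11, Gapdh from 0.29 to 0.72, Eno1 from 0.43 to 0.92 and Ldha from 0.34 to 0.95, nearest 0 without TASTPM K/BxN ST library 1, and Aldoa from 0.28 to 0.69 and Pgk1 from 0.53 to 1.18, lowest without TASTPM Control ST library 3.

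Counts of genes called over all genes depended on the tool, and the cause was not tested. For serum in WT, 1 gene was called by limma, 0 with pseudocount 5, by edgeR, without the 4 libraries by limma or edgeR, with the monocyte and neutrophil covariate and with WT alone, 2 without a trend, 127 by DESeq2, 33 by DESeq2 without the 4 libraries and 0 to 17 with single libraries left out. For serum in TASTPM, 0 became 16 by DESeq2, 10 by DESeq2 without the 4 and 0 to 1 with single libraries left out. Over both genotypes, 0 became 154 by DESeq2, 2 by DESeq2 without the 4, 1 with the monocyte and neutrophil covariate and 0 to 1 with single libraries left out, and the members called went from 0 to 3 by DESeq2. For the interaction, 0 became 12 by DESeq2, 20 by DESeq2 without the 4 and 0 to 3 with single libraries left out. For TASTPM against WT, 0 became 41 by DESeq2 under Control ST, 52 by DESeq2 without the 4, 1 by limma without the 4 and with either covariate, and 0 to 11 with single libraries left out, and 25 by DESeq2 without the 4 under K/BxN ST. The edgeR and DESeq2 fits without the 4 libraries were chosen after seeing the data. No paired analysis was possible because the groups share no replicate numbers.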
